A study of Mus musculus with 8 samples.

Results

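The comparison described here set mouse MLL-AF9 leukemic cells labelled with a hairpin against Sirt1 (shSirt1) beside cells with a hairpin against luciferase (shLUC), all kept in the solvent DMSO without drug. Its members are 4 of the study's 8 Affymetrix arrays, chosen by title: A4 and D11 for shLUC, and A1 and A5 for shSirt1. The other 4 arrays held the same 4 codes after EPZ4777, an inhibitor of the histone methyltransferase DOT1L, at 3 µM for 6 days in shLUC cells and 21 days in cells labelled shSirt1. All cells grew in IMDM with 15% serum and the cytokines SCF (20 ng/ml), IL-3 and IL-6 (each at 10 ng/ml). A hairpin without drug is meant to show what lowering its target does to the transcripts, and luciferase has no mouse target. The labels do not say what a code stands for (a clone, a culture or a hairpin), nor how long the DMSO cultures ran, and hairpin sequences were not used here. Every p-value below therefore measures the spread between these arrays, which may be technical.

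MLL-AF9 joins the histone methyltransferase MLL to AF9, a protein of the transcription elongation machinery, and holds myeloid progenitors in a self-renewing state through Hoxa genes and Meis1. SIRT1 removes acetyl groups from histones and from factors such as p53, FOXO proteins and the p65 subunit of NF-kB, using NAD. Myeloid leukemic cells in culture keep part of the monocyte and granulocyte programme, so genes such as Csf1r, the receptor that monocytes need to survive, and Lyz2, lysozyme, are measurable in them.

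Values are log2 of the deposited RMA intensity, 1 probe set per gene for 18193 genes, and a difference of 1 is a change of 2-fold. The median over all probe sets lay between 5.21 and 5.27 on the 8 arrays. Leukocyte genes were present on all 4 DMSO arrays: Ptprc, the pan-leukocyte antigen CD45, stood at 12.03 and 12.08 in shLUC cells and at 11.63 and 11.54 on A1 and A5, and Spi1, the myeloid factor PU.1, at 9.16, 9.39, 8.36 and 9.12. Of 10 leukocyte identity genes, a list chosen after values were seen, 8 had both labelled arrays below both shLUC arrays and 0 above (22.2% and 17.0% of all genes), with medians of -0.26 on A1 and -0.18 on A5. These lay lower together with the myeloid lists described below, and their part in those differences was not tested. The root mean square standard deviation between the 2 arrays of a label was 0.151 for shLUC and 0.302 for the shSirt1 label, and with 2 arrays per label precision is low throughout.

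The A1 DMSO array stood apart from the other 7 through transcripts of brown fat. Ucp1, the uncoupling protein of brown adipocytes, was at 11.52 on A1, against 3.37 (A4), 3.57 (D11) and 3.54 (A5) in DMSO and 3.57 on the EPZ4777 array of the same code. Adipoq, the hormone adiponectin, was at 10.63 on A1 and between 3.72 and 3.90 on the other DMSO arrays. Fabp4, the fatty acid carrier of adipocytes and macrophages, was at 13.18 against 5.44, 5.97 and 4.88.
A1 alone was high for all 3 genes, and its own EPZ4777 array was not. Cidea and Cidec, lipid droplet proteins, Cox8b, a respiratory chain subunit, Car3, a carbonic anhydrase, and Cd36, a fatty acid translocase, had the same pattern, at 11.51, 7.88, 11.17, 12.61 and 9.34 on A1. Of 25 measured genes of 2 adipocyte lists, 20 were higher on A1 in DMSO than on all 7 other arrays, and 15 of them by at least 1 log2. That count was not made for all genes. A1 was above both shLUC arrays for 8 of 9 brown adipocyte genes and 15 of 16 adipocyte genes (32.7% of all genes). It was below both for 1 and 0 of them (42.1% of all genes). The summed linear intensity of the 25 genes was 36829 on A1 and between 3396 and 5491 elsewhere. Prdm16, a regulator of brown fat identity, was at 4.56 on A1, below the other DMSO arrays (4.90 to 5.003), and Lep, the hormone leptin, was near the floor everywhere (3.48 on A1). Some muscle and connective tissue genes were higher on that array too. Of 11 muscle genes, 8 were above both shLUC arrays on A1 and 2 below (32.7% and 42.1% of all genes). Of 18 genes of stroma and fibroblasts 10 were above and 4 below. The summed intensity of the stroma genes was 1617 on A1, within the range of 1198 to 1865 on the other 7 arrays, and that of the muscle genes was 799 against 340 to 411. Myh4, a fast muscle myosin, was at 6.73 against 3.22 to 3.32, and Col3a1, a fibrillar collagen, at 6.92 against 3.00 to 3.12. The lists of adipocyte, muscle and endothelial genes were chosen after these values were seen and carry no test, and the part of these transcripts in the other differences of A1 was not tested. Medians of gene lists are therefore given for A1 and A5 separately.

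**Figure D1:**
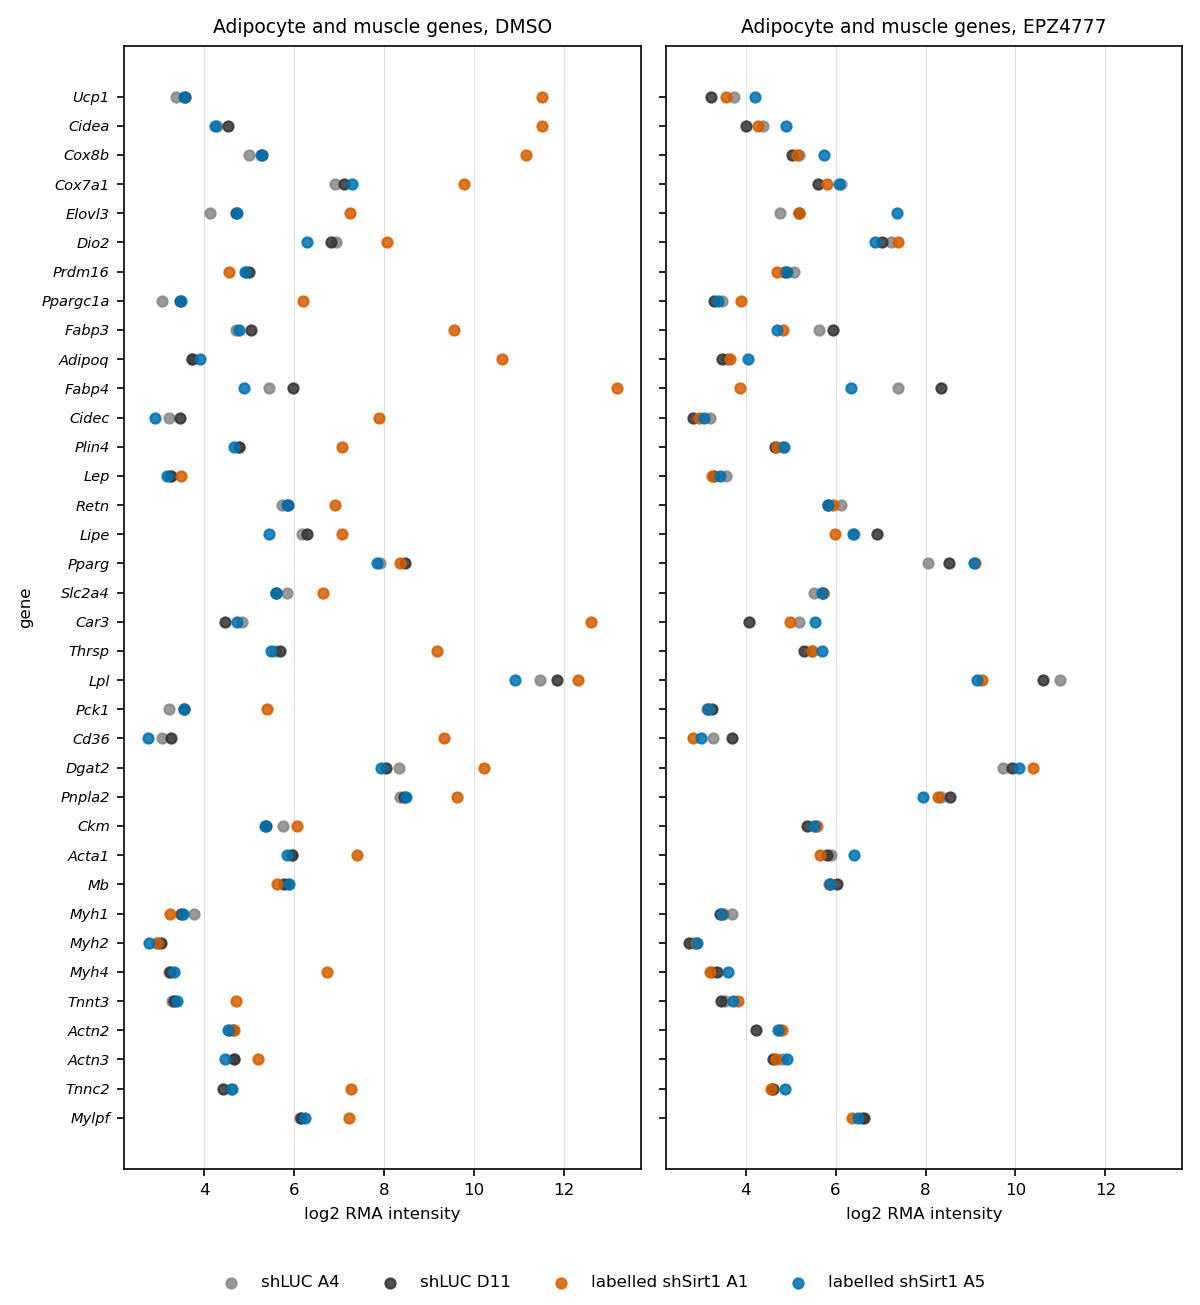
Log2 RMA intensity (x axis) of the adipocyte and skeletal muscle genes (rows) on the 4 DMSO arrays and the 4 EPZ4777 arrays, 1 point per array. A1 lies far to the right of the other DMSO arrays for Ucp1 (11.52), Car3 (12.61) and Fabp4 (13.18). In EPZ4777 it lies among the others for Ucp1 and Car3 and is the lowest for Fabp4 (3.88).

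Sirt1 itself was lower on A1 only. Its single probe set gave 9.46 (A4) and 9.58 (D11) in shLUC cells, 8.70 on A1 and 9.54 on A5, which put A1 at 56.6% and A5 at 102% of the shLUC mean. In EPZ4777 Sirt1 was again lowest on A1, at 8.85 against 9.44 (A4), 9.83 (D11) and 9.73 (A5). The DMSO difference over both labelled arrays was -0.40 ± 0.36 (standard error, n = 2 arrays per label, limma adjusted p = 0.928). It turned to 0.028 without A1, so directions below are directions between labels. Among the other sirtuins, Sirt2, the cytosolic tubulin deacetylase, was lower on both labelled arrays, at 8.49 and 8.46 against 8.67 and 8.70, a distance of 0.17 between the nearest arrays. Sirt5, the mitochondrial desuccinylase, was at 7.80 and 8.04 against 7.59 and 7.78, so its labels stood just apart. The difference was positive at 2 of its 3 probe sets. Sirt3, Sirt4, Sirt6 and Sirt7 differed by between -0.15 and 0.00036 log2. Of these only Sirt6 had both labelled arrays below both shLUC arrays, by a distance of 0.0061. None of the 7 sirtuins passed the test. Dot1l, the target of the drug used elsewhere in the study, differed by 0.088 ± 0.12 and turned to -0.046 without A4. Its difference was positive at 1 of its 2 probe sets.

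Across all genes, 0 of 18193 passed the test of cells labelled shSirt1 against shLUC in DMSO (limma, Benjamini-Hochberg adjusted p under 0.05), and the smallest adjusted p was 0.796. At an unadjusted p under 0.05 there were 985 genes (5.41%), 366 higher and 619 lower. A single gene tested exactly with 2 against 2 arrays cannot go below p = 0.333. With A5 left out, A1 against shLUC gave 155 genes (0.852%), of which 131 were higher and 24 lower. With A1 left out, A5 against shLUC gave 0 genes, with 845 at an unadjusted p under 0.05 and a smallest adjusted p of 0.311. In each of those fits a lone array was assumed to vary like the arrays of the other groups. Among cells in EPZ4777 the same contrast of labels called 56 genes, 12 higher and 44 lower (0.308%), and the test of the difference between the DMSO and the EPZ4777 contrasts called 0, with 1221 (6.71%) at an unadjusted p under 0.05. With 1 array left out, the EPZ4777 count ran from 0 (without D11 in EPZ4777) to 73, and the count for the difference from 0 to 89 (without A5 in DMSO); it was 3 with code as a random block. Calls in EPZ4777 named below therefore depend on single arrays, and the labels there also differ in days of drug.

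Genes whose arrays did not overlap between the labels are described next, without a test. Both labelled arrays lay above both shLUC arrays for 3097 genes (17.0% of all) and below them for 4035 (22.2%). Singly, A1 lay above both shLUC arrays for 32.7% of genes and below for 42.1%, and A5 for 35.0% and 37.8%. When the 202 genes at least 1 log2 higher on A1 than on the other DMSO arrays were left out, the count above was 3027. The count below could not change, since on A1 those genes lie above both shLUC arrays. A distance of at least 0.5 log2 between the nearest arrays was reached by 46 genes above and 108 below. Of those 108 lower genes, 73 (67.6%) also had both labelled arrays below both shLUC arrays in EPZ4777, where 18.2% of all genes did. Of the 46 higher genes it was 20 (43.5%, against 21.0% of all genes). The EPZ4777 arrays are other hybridisations of the same 4 codes.

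The 12 lower genes with the widest distance included several of monocytes and macrophages. Klf4, a zinc finger factor of monocyte differentiation, was at 9.28 (A4) and 9.55 (D11) in shLUC cells, 7.22 on A1 and 7.84 on A5. Adgre1, the macrophage antigen F4/80, was at 9.06 on both shLUC arrays, 6.82 on A1 and 8.001 on A5. Mpeg1, a pore-forming protein of macrophages, was at 10.90 and 11.11 in shLUC cells, 8.27 on A1 and 10.00 on A5. The labels did not overlap for any of these, and A1 was the lowest array each time. Fitted differences were -1.88 ± 0.33 for Klf4, -1.65 ± 0.36 for Adgre1 and -1.87 ± 0.59 for Mpeg1 (log2 difference ± standard error, limma adjusted p = 0.882 for each).
Cd48, an adhesion molecule of the SLAM family, was at 8.86 on both shLUC arrays, 7.83 on A1 and 7.82 on A5. Slc2a6, a hexose transporter, was at 7.54 and 7.53, then 6.50 and 6.35. For these genes A1 and A5 stood close together, at 49.1% and 48.6% of the shLUC mean for Cd48 and 48.8% and 43.9% for Slc2a6, and the arrays of each label were nearly level. Their fitted differences, -1.03 ± 0.14 and -1.11 ± 0.16, had a limma adjusted p of 0.796 in DMSO. Within EPZ4777 the labels differed by -1.59 and -1.81 (limma adjusted p = 0.0193 for each).
Ifi209, an interferon-inducible protein of the PYHIN family, was at 7.75 and 8.11 in shLUC cells against 6.41 and 5.99, and was lower in EPZ4777 too (-2.97, limma adjusted p = 0.0399). Id2, which inhibits basic helix-loop-helix factors, was at 9.19 and 9.76 against 8.11 and 8.10. Egr1, an immediate early transcription factor, was at 9.99 and 10.63 against 8.70 and 9.01. In EPZ4777, Egr1 on A1 (10.65) was the highest of the 4 arrays, so its distance did not recur there. The remaining 4 genes were Mgam, a maltase, Sgip1, an endocytic adaptor, Pkib, an inhibitor of protein kinase A, and Wfdc18, with differences from -1.75 to -1.32. All 12 kept their sign in EPZ4777, although Mgam was nearly level there (-0.0084). The share of all genes that kept their sign was not counted. Both labelled arrays were below both shLUC arrays in EPZ4777 for 8 of the 12 (18.2% of all genes). The next gene in the order, Amot, was left out at the same distance of 0.90 as Mpeg1.

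The starts of 10 of these 12 lower genes and 11 of the 12 higher genes were in the RefSeq promoter table (GRCm38.p6), and the 250 bases before each start were searched on both strands for letters of myeloid and general promoter motifs. A pair of the lower genes is shown, with GC boxes (GGGCGG) and CCAAT boxes in capitals: Klf4, chr4:55532476-55532725 on the minus strand, and Mpeg1, chr19:12460520-12460769 on the plus strand.
Klf4: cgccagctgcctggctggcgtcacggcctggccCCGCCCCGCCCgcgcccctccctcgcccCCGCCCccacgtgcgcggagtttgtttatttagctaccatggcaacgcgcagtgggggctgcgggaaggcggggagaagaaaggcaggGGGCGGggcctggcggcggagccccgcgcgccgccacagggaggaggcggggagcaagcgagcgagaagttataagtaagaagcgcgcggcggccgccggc
Mpeg1: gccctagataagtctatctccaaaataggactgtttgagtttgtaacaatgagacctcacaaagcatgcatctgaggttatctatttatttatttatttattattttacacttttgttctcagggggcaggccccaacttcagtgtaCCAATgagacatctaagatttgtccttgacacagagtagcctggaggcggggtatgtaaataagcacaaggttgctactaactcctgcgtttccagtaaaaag
The GC box stood in 4 of 10 lower and 7 of 11 higher genes and in 49.9% of 14452 promoters, and CCAAT in 4 and 4 and in 35.7%. The PU.1 core GAGGAA was found in 0 lower and 1 higher gene (Fkbp9; 22.7% of promoters), the C/EBP letters TTGCNNAA in none of either set (8.07%), the AP-1 letters TGANTCA in Ifi209 only (5.58%), and the EGR letters GTGGGCG in Bhlhb9 only (10.6%). The motifs GGGCGG and GTGGGCG can share bases. A match describes letters in this window and nothing about a bound factor.

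The 12 higher genes with the widest distance shared no one role. Fkbp9, a prolyl isomerase of the endoplasmic reticulum, was at 2.95 (A4) and 4.95 (D11) in shLUC cells, 8.17 on A1 and 6.33 on A5, and at 4.38, 4.57, 7.47 and 5.79 in EPZ4777. Ptch1, the Hedgehog receptor, was at 6.42 and 6.52 against 8.10 and 7.79. Arfgef3, a guanine nucleotide exchange factor relative, was at 6.19 and 6.08 against 8.27 and 7.20.
These labels did not overlap in DMSO, yet the 2 shLUC arrays of Fkbp9 lay far apart. Both of its 2 probe sets were higher over the labelled arrays together. A5 was above the mean of A4, D11 and A1 at only 1 of them. Arfgef3 passed when A5 was left out (2.14 ± 0.25, limma adjusted p = 0.0194) and not over both arrays (1.60 ± 0.35, limma adjusted p = 0.882). Tut4, which adds uridines to RNA, Serpinb6a, a protease inhibitor, and Sgce, an imprinted sarcoglycan, differed by 1.56 ± 0.51, 1.83 ± 0.40 and 1.17 ± 0.43. Slc43a1, an amino acid transporter, Eid2, Catsperz, Zcchc14 and Rgcc, a regulator of the cell cycle, made up most of the rest, between 0.97 and 1.40. For Zcchc14, 3 of 4 probe sets were higher over the labelled arrays together. At 1 of the 4, A5 was above the mean of A4, D11 and A1. Bhlhb9 was at 7.65 and 7.71 against 9.19 and 8.49, and in EPZ4777 at 6.74 and 6.50 against 9.16 and 8.51. The labels differed there by 2.21 (limma adjusted p = 0.0411), with the labelled arrays level with DMSO and the shLUC arrays lower. Of the 12, 11 were further from shLUC on A1 than on A5, and 11 kept their sign in EPZ4777. For 6 of them both labelled arrays were above both shLUC arrays there (21.0% of all genes).

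Monocyte and macrophage genes, taken as a list, were lower on both labelled arrays. Of 24 measured genes, 18 had both labelled arrays below both shLUC arrays and 0 above (22.2% and 17.0% of all genes), and 13 reached an unadjusted p under 0.05 (5.41% of all genes). The median difference was -1.08 log2, against -0.013 over all genes, made up of -1.65 on A1 and -0.67 on A5. Without A1, then, it was -0.67, and 20 of the 24 genes on A5 were below both shLUC arrays (37.8% of all genes were). A bulk array cannot tell fewer cells of a type from less RNA per cell.
Csf1r was at 9.79 and 10.32 in shLUC cells, 7.62 on A1 and 9.13 on A5. Ctss, a lysosomal protease of antigen-presenting cells, was at 11.18 and 11.52, then 9.54 and 10.50. Ccr2, the chemokine receptor of inflammatory monocytes, was at 11.27 and 11.21, then 9.85 and 10.45. In each, A5 lay between A1 and the shLUC arrays. Fcgr1, the high-affinity Fc receptor, Cd68, a lysosomal glycoprotein, and Ms4a6c followed the same order, with A1 at 15.2%, 26.2% and 21.4% and A5 at 58.7%, 62.7% and 62.5% of the shLUC mean. Adgre1, Ctss, Msr1, Fcgr1 and Csf1r fell on A1 in the fit without A5 (limma adjusted p from 0.00941 to 0.0333). Cd14, the lipopolysaccharide co-receptor, was an exception on A5, at 10.11 beside 9.87 and 10.16, with 8.37 on A1. F13a1, coagulation factor XIII of monocytes, was between 13.23 and 13.31 on all 4 arrays, and the complement genes C1qa, C1qb and C1qc lay under 5 on all 4. In EPZ4777 the list's median was -2.03, 21 of 24 genes had both labelled arrays below both shLUC arrays (18.2% of all genes), and 5 passed as lower (0.242% of all genes).

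**Figure D2:**
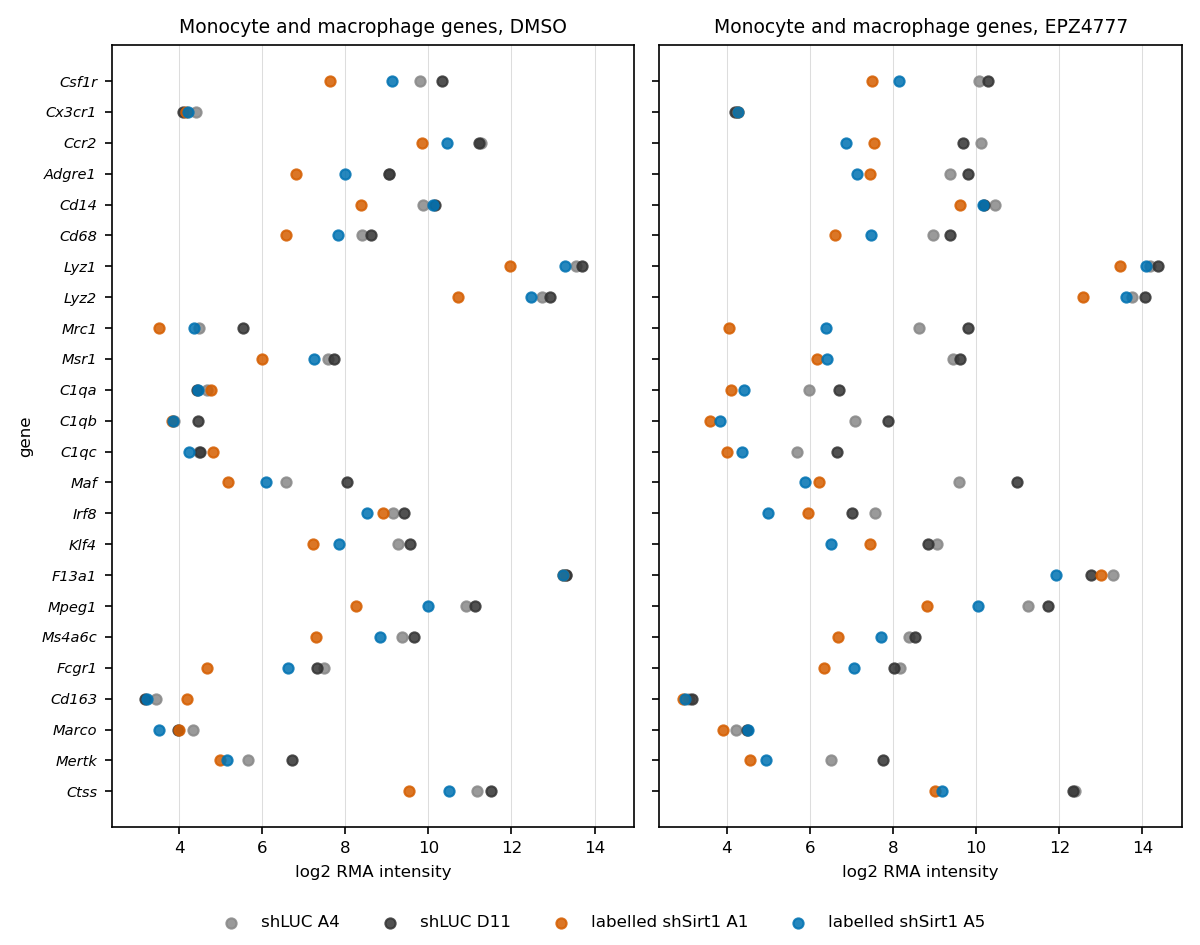
Log2 RMA intensity (x axis) of the 24 monocyte and macrophage genes (rows) on the DMSO and the EPZ4777 arrays, 1 point per array. A1 lies left of the shLUC arrays for most genes in DMSO and A5 between them, as for Csf1r (7.62 and 9.13 against 9.79 and 10.32).

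Neutrophil genes differed between the 2 labelled arrays. All 21 measured genes of neutrophil maturation were below both shLUC arrays on A1 (42.1% of all genes were), against 11 on A5 (37.8%). Median differences were -1.41 on A1 and -0.22 on A5. Camp, the cathelicidin of secondary granules, was at 9.67 and 10.37 in shLUC cells, 7.37 on A1 and 10.89 on A5, so A1 was the lowest and A5 the highest array. S100a9, a subunit of calprotectin, was at 12.93 and 13.46, then 10.74 and 13.12. Chil3, a chitinase-like protein of activated myeloid cells, was at 10.82 and 11.56, then 7.40 and 11.49. On A1 in EPZ4777 the list's median was -0.80 from shLUC, and on A5 it was 0.69, so the order of A1 and A5 was the same there. Primary granule genes, of earlier granulocyte precursors, had medians of 0.10 on A1 and 0.04 on A5, with 3 of 10 genes above and 3 below (17.0% and 22.2% of all genes).

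Genes of the lysosome and autophagy were lower by small amounts on both labelled arrays. In this list 15 of 19 genes had both arrays below both shLUC arrays and 0 above (22.2% and 17.0% of all genes), with medians of -0.20 on A1 and -0.31 on A5. An unadjusted p under 0.05 was reached by 6 of the 19 (5.41% of all genes). Lamp1, the abundant membrane protein of lysosomes, was at 12.79 and 12.81 in shLUC cells and at 12.39 and 12.47 on A1 and A5. Ctsl, a cysteine protease of lysosomes, was at 11.66 and 11.88, then 10.73 and 11.37. Ctsa and Ctsb, further lysosomal proteases, differed by -0.49 ± 0.14 and -0.46 ± 0.20. In EPZ4777 11 of the 19 genes had both labelled arrays below (18.2% of all genes), with medians of -0.26 on A1 and -0.28 on A5.

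Most chemokine genes lay below as well. Among chemokines and their receptors 12 of 19 genes had both labelled arrays below both shLUC arrays and 0 above (22.2% and 17.0% of all genes), with medians of -0.25 on A1 and -0.37 on A5. Ccl4, a macrophage inflammatory protein, was at 7.94 and 7.81 in shLUC cells and 7.12 and 7.17 in the labelled cells. Ccl2, the ligand of Ccr2, was at 6.00 and 7.21, then 4.41 and 5.60, where the 2 shLUC arrays differed by more than the distance between the labels. In EPZ4777 Ccl3 on A1 was at 11.58 against 10.36 and 10.25 in shLUC cells, the opposite of its order in DMSO (10.98 against 11.58 and 11.50).
Cytokine receptors and signal inhibitors were mixed, with 7 of 21 genes below on both labelled arrays and 3 above (22.2% and 17.0% of all genes) and medians of 0.011 on A1 and -0.16 on A5. Among the lower ones, Il6st, the signalling chain shared by interleukin-6 receptors, was at 7.58 and 7.96 against 7.07 and 6.72, and Csf3r, the receptor of granulocyte colony-stimulating factor, at 7.78 and 7.75 against 7.22 and 7.18. Of 22 interferon response genes 10 were below on both arrays and 1 above (22.2% and 17.0% of all genes), with medians of -0.15 on A1 and -0.10 on A5. Zbp1, a nucleic acid sensor, was at 6.65 and 6.58 against 6.16 and 5.88. Of 21 genes of NF-kB and inflammation, a pathway whose p65 subunit SIRT1 deacetylates, 9 were below and 1 above (22.2% and 17.0% of all genes), with medians of -0.33 on A1 and -0.16 on A5. Nfkbia, its inhibitor and target, was at 11.24 and 11.51 against 10.99 and 11.31, so its arrays overlapped. Several of these genes stand on more than 1 list.

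**Figure D3:**
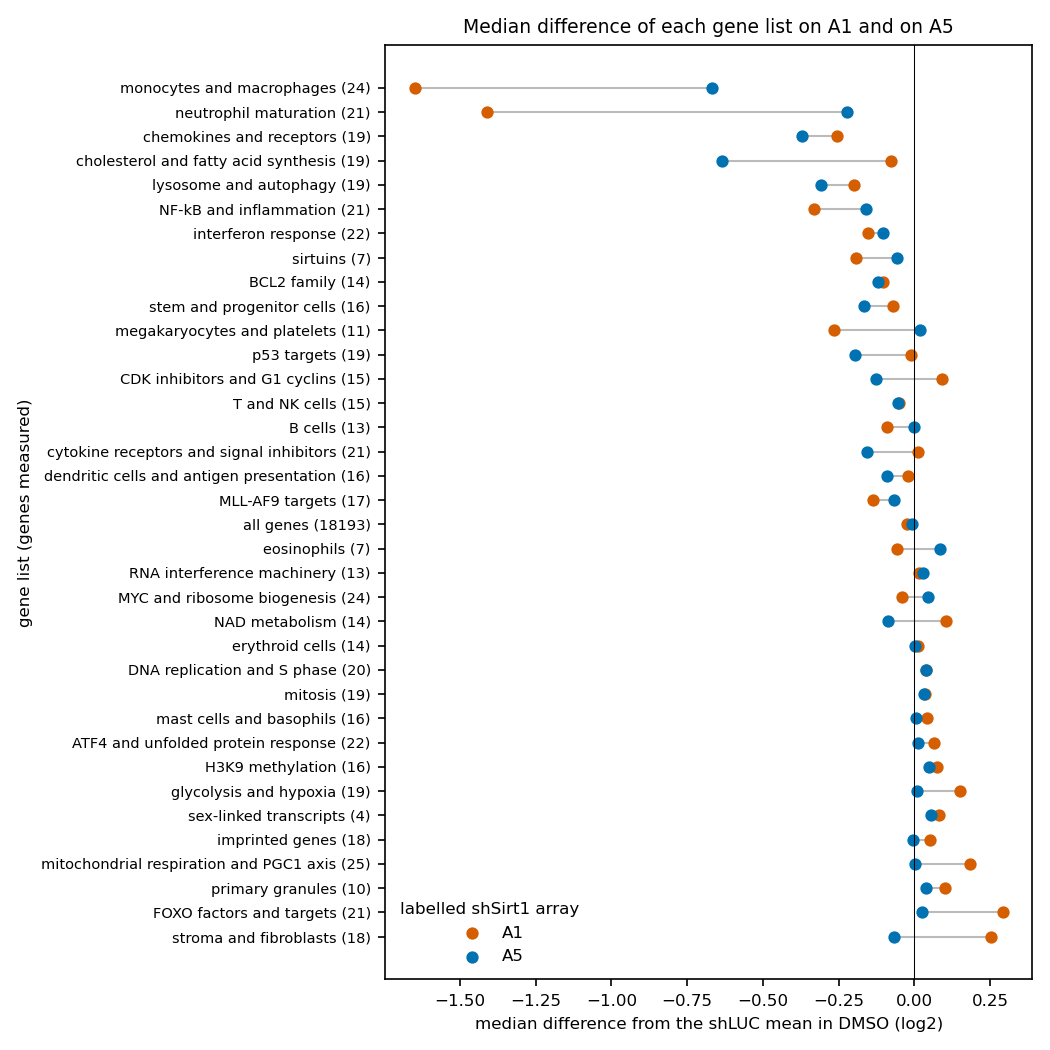
Median log2 difference from the shLUC mean in DMSO (x axis) for each gene list (rows, with the number of genes measured), on A1 and on A5. Monocyte and macrophage genes have the lowest medians on both arrays (-1.65 and -0.67), and all genes together lie at -0.025 and -0.0067.

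On A1 alone, 202 genes were at least 1 log2 above each of the other 3 DMSO arrays (1.11% of all) and 111 at least 1 log2 below (0.610%). The shLUC arrays had few such genes: 3 below on A4 (0.0165%), and 9 above (0.0495%) and 4 below (0.0220%) on D11. The 10 furthest above were Ucp1, Car3, Fabp4, Cidea, Adipoq, Cd36, Cox8b, Cav1, a caveolar coat protein of adipocytes and endothelium, Pdk4, a kinase that turns off pyruvate dehydrogenase, and Apoc1, an apolipoprotein, by 4.63 to 7.94. In EPZ4777 A1 was the highest of the 4 arrays for 0 of those 10. Genes of the adipocyte lists were among those called higher on A1 with A5 left out. Those lists were chosen after these values were seen, so this is a description only. The genes called higher had a median difference of 2.14 in DMSO, and the median of the same genes on A1 in EPZ4777 was 0.027.
Genes low on A1 behaved otherwise. The 24 genes called lower had a median of -2.21 in DMSO and -1.92 on A1 in EPZ4777, against the shLUC arrays there. Gpnmb, a transmembrane glycoprotein of macrophages, was at 9.60 and 10.47 in shLUC cells and 7.03 on A1, and at 11.98, 12.57 and 9.14 in EPZ4777. Clec4n, the fungal receptor dectin-2, was at 9.40 and 9.55 in shLUC cells, 6.14 on A1 and 8.67 on A5, and Tgfbi, a matrix protein secreted by monocytes, at 9.13 and 9.46, then 5.98 and 8.33. Both fell on A1 in the fit without A5 (limma adjusted p = 0.000651 for each). Cmc1, a mitochondrial assembly factor, was at 7.79 on A1 and between 10.17 and 10.64 elsewhere in DMSO, and at 7.35 against 9.91 to 10.42 in EPZ4777. Of the 10 furthest below, 8 were also the lowest in EPZ4777, the exceptions being Stfa2l1 and Camp. Over all 111 it was 83 (74.8%), where A1 was the lowest in EPZ4777 for 24.5% of all genes. Of the 202 higher genes 65 (32.2%) were also the highest in EPZ4777, near the 24.8% of all genes, and for 36 A1 was the lowest there.
Some genes were at least 1 log2 higher on A1 with both agents, 24 in all. Plod2, a collagen lysyl hydroxylase, Gja1, a gap junction protein, and Grb10, an imprinted adaptor of insulin signalling, exceeded the other arrays by 2.90, 1.998 and 1.80 in DMSO and by 2.90, 2.14 and 3.48 in EPZ4777. Ccnd2, a D-type cyclin, was at 11.42 on A1 against 9.64 to 10.16 in DMSO and at 10.98 against 8.65 to 9.64 in EPZ4777. These examples were picked after their values were seen.

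**Figure D4:**
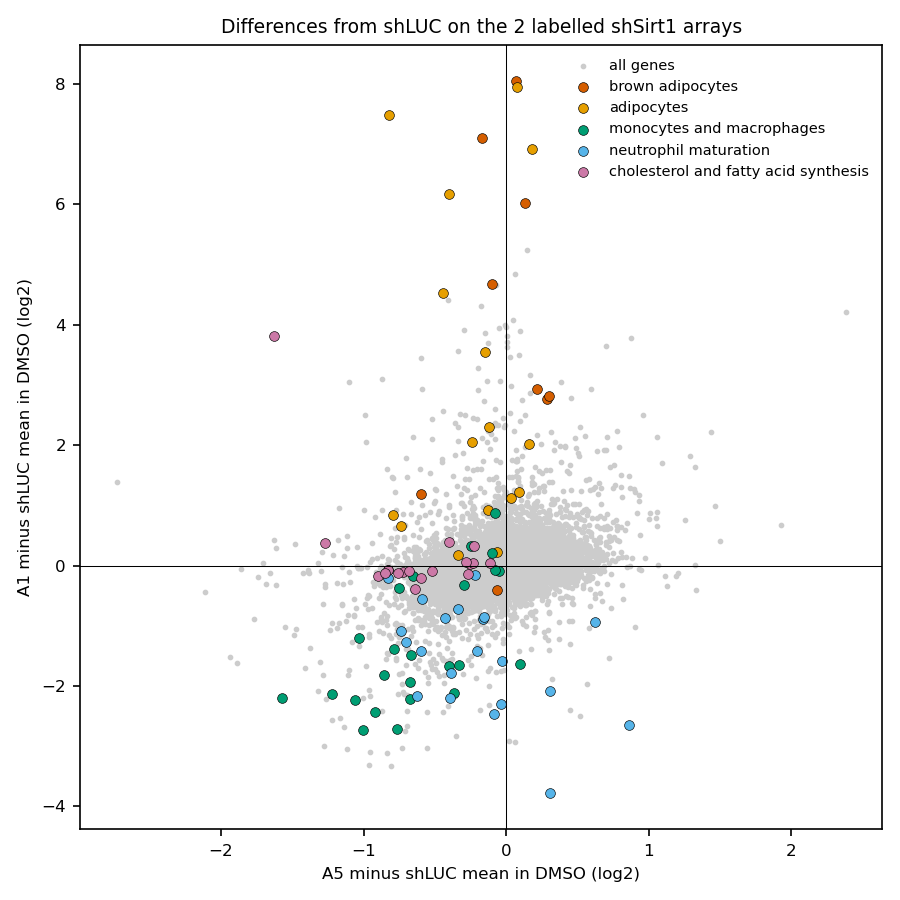
Log2 difference from the shLUC mean in DMSO on A5 (x axis) and on A1 (y axis), 1 point per gene, with 5 gene lists in colour. Adipocyte genes lie along the A1 axis alone (Ucp1 at 8.05 on A1 and 0.072 on A5), and most monocyte and macrophage genes lie below 0 on both axes.

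A5, on which Sirt1 was not lower, had a smaller set of its own. At least 1 log2 from each of the other 3 DMSO arrays there were 7 genes above (0.0385% of all) and 27 below (0.148%). Il10rb, a chain of the interleukin-10 receptor, was at 8.15 on A5 and between 9.95 and 10.05 elsewhere in DMSO, and at 7.97 against 9.60 to 10.34 in EPZ4777. Erlin2, a regulator of endoplasmic reticulum protein degradation, was at 6.80 against 8.50 to 8.54, then 6.68 against 7.78 to 8.41. Fads2, a fatty acid desaturase, was at 7.22 against 8.83 to 9.12, then 6.55 against 8.60 to 9.13.
A5 was thus the lowest array for these genes with either agent. On A1 in DMSO they stood at 96.1%, 103% and 122% of the shLUC mean, and in EPZ4777 at 70.0%, 143% and 101%. Olr1, a scavenger receptor, Pde3b, a cyclic nucleotide phosphodiesterase, Tlcd3a, Tspan4, a tetraspanin, and Dctn6, a dynactin subunit, were also lowest on A5 with either agent, at 23.1%, 30.0%, 32.3%, 35.8% and 40.0% of the shLUC mean in DMSO. Igf1, a growth factor that macrophages secrete, was low on A5 in DMSO (6.67 against 8.05 to 8.59) and on both labelled arrays in EPZ4777 (5.01 and 4.81 against 9.05 and 9.83), where the labels differed by -4.54 (limma adjusted p = 0.0315). All 10 genes furthest below on A5 were the lowest on A5 in EPZ4777 as well. Of the 27 it was 25, and 19 by at least 1 log2, where A5 was the lowest in EPZ4777 for 21.6% of all genes. None of these passed on A5 in the fit without A1.
Among genes high on A5, Nefh, a neurofilament subunit, was at 7.38 against 5.63 to 6.06, and at 7.16 against 5.71 to 6.49 in EPZ4777. Gkap1, an anchoring protein of a cGMP-dependent kinase, was at 8.26 against 6.61 to 7.17, and Lrp11, a membrane protein, at 7.44 against 5.38 to 6.19. Of the 10 furthest above, 7 were also the highest in EPZ4777 (24.4% of all genes were), and Ociad2, Slc7a2 and Ift43 were not.

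**Figure D5:**
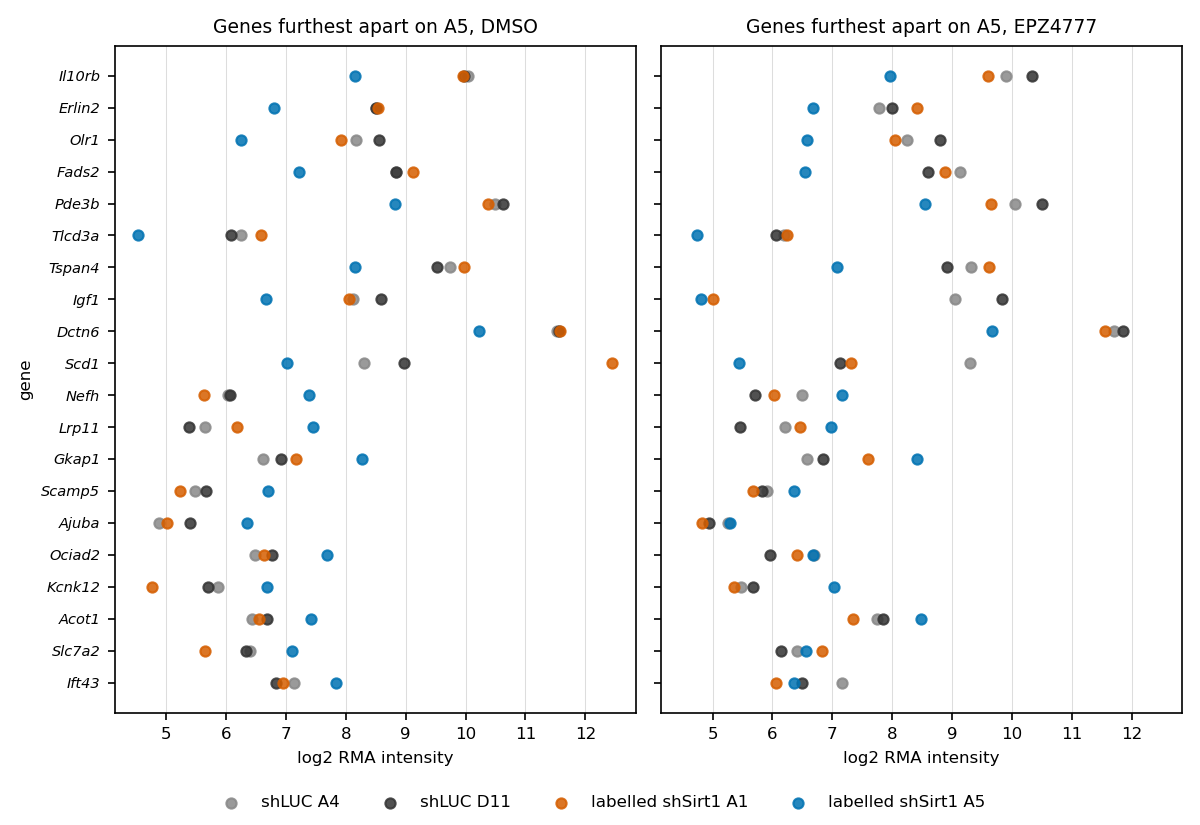
Log2 RMA intensity (x axis) of the 10 genes furthest below and the 10 furthest above the other DMSO arrays on A5 (rows), in DMSO and in EPZ4777, 1 point per array. For Il10rb, Erlin2 and Fads2 the A5 point is the lowest in both panels.

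Genes of cholesterol and fatty acid synthesis separated A5 as a group. All 19 measured genes were lower on A5 than on A1 (8373 of all 18193 genes were). All 19 were also below both shLUC arrays on A5 (37.8% of all genes were), with a median of -0.64. On A1 the median was -0.08 and 9 of 19 were below, near the share of all genes (42.1%). Hmgcs1, which makes the precursor of mevalonate, was at 11.78 and 11.88 in shLUC cells, 11.76 on A1 and 10.996 on A5. Sqle, squalene epoxidase, was at 10.84 and 10.90, then 10.77 and 10.15. Elovl6, a fatty acid elongase, was at 9.79 and 10.05, then 10.30 and 8.65. In EPZ4777 the medians were -0.39 on A5 and -0.00028 on A1. Scd1, a desaturase also abundant in adipocytes, was at 8.31 and 8.96, then 12.45 on A1 and 7.01 on A5, beside the adipocyte transcripts of A1.

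Targets of p53 and FOXO factors, both SIRT1 substrates, had small medians. Of 19 p53 targets 8 had both labelled arrays below and 2 above (22.2% and 17.0% of all genes). Their medians were -0.01 on A1 and -0.20 on A5, and 18 of 19 were higher on A1 than on A5 (8373 of all 18193 genes were). Cdkn1a, the cell cycle inhibitor p21, was at 10.24 and 10.30 against 10.58 and 9.78, and Btg2, an antiproliferative factor, at 7.61 and 7.70 against 7.06 and 7.01. Perp, a p53 target of the cell surface, was at 4.24 and 4.54 against 5.77 and 5.04, and in EPZ4777 the labels differed by 3.03 (limma adjusted p = 0.0315).
Of 21 FOXO factors and targets, 7 were above and 1 below (17.0% and 22.2% of all genes), with medians of 0.29 on A1 and 0.03 on A5. On A1 15 of the 21 were above both shLUC arrays (32.7% of all genes were), and on A5 9 were (35.0%). This did not recur in EPZ4777, where the medians were -0.14 on A1 and -0.01 on A5. There 2 genes were above on both labelled arrays and 4 below (21.0% and 18.2% of all genes). In DMSO, Foxo1 and Foxo4 were at 6.12 and 6.01 against 6.68 and 6.37, and at 5.84 and 5.90 against 6.50 and 6.19. Hoxa9, a target of the fusion, was at 12.63 and 12.83 against 12.35 and 12.72, Hoxa10 at 10.51 and 10.62 against 10.30 and 10.38, and Meis1 at 7.62 and 7.93 against 7.64 and 6.91. The 17 MLL-AF9 targets measured had medians of -0.14 on A1 and -0.07 on A5, with 3 below and 1 above (22.2% and 17.0% of all genes), so the share below was near that of all genes. Mef2c, a MADS-box factor of myeloid progenitors, was the one furthest apart, at 9.55 and 9.97 against 9.12 and 9.23.
Genes of H3K9 methylation (16 measured) had medians of 0.08 on A1 and 0.05 on A5, with 7 above on both arrays and 3 below (17.0% and 22.2% of all genes). Genes of NAD metabolism (14) had medians of 0.10 and -0.09. Medians for DNA replication (20) and mitosis (19) were 0.04 on A1 for each, and 0.04 and 0.03 on A5. Genes of MYC and ribosome biogenesis (24) had medians of -0.04 on A1 and 0.05 on A5. Of them 22 were lower on A1 than on A5, as were 9793 of all 18193 genes. Mitochondrial genes with the PGC1 axis (25) were at 0.18 on A1 and 0.0027 on A5, and Ppargc1a, a coactivator that brown fat induces, was at 6.20 on A1 against 3.07 to 3.48.

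A1 and A5 differed from each other more often than the 2 shLUC codes did. At least 1 log2 lay between A1 and A5 for 471 genes, 316 of them higher on A1, and between A4 and D11 for 34. In EPZ4777, 347 of the 471 (73.7%) kept the sign of A1 minus A5, and 30 of the 34 (88.2%) that of A4 minus D11. By direction it was 205 of the 316 higher on A1 and 142 of the 155 lower. The 316 included adipocyte genes such as Ucp1, for which A1 minus A5 was 7.98 in DMSO and -0.64 in EPZ4777. The share of all genes that kept their sign was not counted. Across all 18193 genes the difference A1 minus A5 in DMSO correlated with that in EPZ4777 at r = 0.378 (Spearman 0.346), and A4 minus D11 at 0.293. Genes are not independent replicates, and each pair of points shares its code.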

How the data were processed

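Total RNA of mouse MLL-AF9 leukemic cells was hybridised to 8 Affymetrix arrays, 2 per combination of hairpin label and agent. The authors deposited RMA intensities on a linear scale, per the submitters' processing notes, which name no RMA version. RMA subtracts background, equalises the arrays' distributions and summarises probes, so a change shared by most genes would not show. Here log2 was taken. Of 45101 probe sets, 64 controls were left out, 34945 had 1 gene symbol in the platform annotation, 932 had several and 9160 were not listed there. Each of 18193 genes was represented by its brightest probe set on average across all arrays.

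Means of the 4 groups were fitted to all 8 arrays with limma 3.58.1 (R 4.3.3), leaving 4 residual degrees of freedom, with Benjamini-Hochberg adjustment over all genes and a threshold of 0.05. The procedure was tested on simulated data. Arrays were grouped by title. The 4 codes recur in both agents, so code was tried as a block. Alternatives were the probe set rule, a level filter, quantile normalization, median centring, trended and robust variances, the DMSO arrays alone, and each array left out.

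Named genes were the 12 with the widest distance between the nearest arrays of the labels in each direction, the 10 furthest from the 3 other DMSO arrays on A1 and on A5 in each direction (all at or above the median gene level of 6.13 in the higher label or arrays), the sirtuins, Dot1l, Hoxa7, Hoxa9, Hoxa10 and Meis1, and for each list up to 4 members furthest apart between labels and between A1 and A5. Clones and unnamed predicted genes were passed over. Other list members, and genes called on A1 or set apart with both agents, were named after their values were seen. The members and lists were chosen with earlier results of these data known. The brown adipocyte, adipocyte, endothelium, skeletal muscle and leukocyte identity lists were added after these values were seen. Promoter bases came from RefSeq (GRCm38.p6).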

Additional observations from a re-analysis of the deposited data

How the results depend on the processing

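The count of genes past the threshold stayed at 0 under each planned setting except that leaving out an array gave 0 to 155, with 155 only without A5, and the unadjusted p gave 985. With code as a random replicate block 0 genes passed, and a fixed block for pairing could not be fitted since each code has 1 hairpin. Genes without overlap numbered 2043 higher and 1962 lower among genes above the median level, 5950 and 7405 over every probe set, 46 and 108 at a distance of 0.5, and 6 and 11 at 1. Genes set apart on A1 numbered 145 above the median level, 532 over every probe set and 775 at 0.5 log2, and on A5 57 over every probe set and 233 at 0.5 log2. The median of monocyte and macrophage genes ran from -1.65 without A5 to -0.67 without A1. With 1 array left out, Sirt1 ran from -0.82 to 0.028, Sirt3 from -0.12 to 0.12 (-0.042 without D11), Sirt4 from -0.16 to 0.056, Dot1l from -0.046 to 0.22 and Hoxa7 from -0.42 to 0.049, so each changed sign. The cause was not tested. Leaving out the genes at least 1 log2 higher on A1 was chosen after seeing the data.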
